A study of Saccharomyces cerevisiae with 13 samples.

Results

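The 10 mating-type specific genes followed here were 7 a-specific genes (MFA1, MFA2, STE6, STE2, BAR1, AGA2 and ASG7) and 3 alpha-specific genes (MF(ALPHA)1, STE3 and SAG1) of budding yeast. They were chosen by their annotation, with earlier results of these data known. Each was measured by 1 probe set, and they stand among the 5449 genes measured on 13 expression arrays. All arrays came from BY4741, a laboratory strain of mating type a, grown at 30°C in YPGE, a non-fermentable medium of glycerol and ethanol, until the cultures were saturated. Time zero was sampled before treatment (2 arrays, although their agent label also names isopropanol). The other groups received 2% isopropanol for 1 h (2 arrays), 2 h (1 array, as the other RNA was poor) or 4 h (2 arrays), or 0.05 mM TFM for 1, 2 or 4 h (2 arrays each). TFM is a nitrophenol lampricide and an uncoupler of mitochondria. Whether the TFM cultures also received isopropanol is not stated in the labels. BY4741 lacks LEU2, MET17 and URA3 and part of HIS3, and every group shares these deletions. The labels do not say whether replicates came from separate cultures, so p-values reflect the spread of these RNA samples alone, and that spread may be technical.

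Haploid yeast cells are of mating type a or alpha, and each type transcribes a small set of genes that lets it signal to the other. An a cell exports a-factor, a short lipid-modified peptide, and carries the receptor for alpha-factor. An alpha cell secretes alpha-factor and carries the receptor for a-factor. The transcription factor Mcm1 acts at both sets. In alpha cells the alpha1 protein activates the alpha-specific genes with Mcm1, and the alpha2 protein represses the a-specific genes.

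Values are log2 RMA signals as deposited. They were normalized to a common distribution on every array, so each is relative to the array as a whole. Probe sets for control transcripts that had not been spiked in gave the background: 59 such probe sets had means from 4.62 to 5.94, and 5.94 was taken as the background level. Over all genes, replicate arrays had Pearson r between 0.9917 and 0.9984. The number of arrays limits the precision, with a median standard error over all genes of 0.0954 for the log2 difference at 1 and 4 h and 0.117 at 2 h. In bulk RNA, fewer cells expressing a gene and less of its RNA per cell cannot be told apart.

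The labelled mating type was checked first. The probe set named HMLALPHA1, whose sequence is shared with the alpha1 gene of an alpha cell, gave 5.27 to 5.83 over the 13 arrays, below the background level on every one. HMRA1, shared with the a1 gene of an a cell, gave 11.3 to 12.2. Of the genes removed from BY4741, URA3 gave 4.76 to 5.04, MET17 gave 5.28 to 5.80 and LEU2 gave 5.20 to 6.15. The LEU2 value of 6.15, on TFM 2 h replicate 1, was above the background level of 5.94. The highest unspiked control on that array gave 6.27. HIS3, removed only in part, gave 11.3 to 11.6. The 7 a-specific genes lay above background on all arrays, the lowest value being 8.30 for ASG7. STE3 and SAG1, although alpha-specific, also lay above background on all arrays, with lowest values of 8.76 and 11.5. Differences in probe affinity mean that levels of different probe sets cannot be ranked against each other. MF(ALPHA)1 lay above background on 11 of the 13 arrays, which are all those outside TFM at 4 h.

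After 4 h of TFM all 7 a-specific genes fell relative to isopropanol, by 0.73 to 1.63 on the log2 scale. The alpha-specific genes split: MF(ALPHA)1 fell, SAG1 rose, and STE3 did not pass the test. In total 8 members were lower and 1 higher at 4 h (limma, adjusted p under the threshold of 0.05). This contrast called 64.9% of all 5449 genes, 34.0% lower and 30.9% higher. The a-specific median difference was -1.11, beside -0.012 over all genes. The count stayed at 9 without any single array, and with a term for RNA integrity.

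The a-factor is made from 2 genes, MFA1 and MFA2, which each encode a precursor. MFA1 stood at 14.21 and 14.17 at time zero, at 14.17 and 14.19 after 1 h of isopropanol, at 14.13 after 2 h and at 14.18 and 14.22 after 4 h. With TFM it stood at 14.01 and 14.09 after 1 h, at 14.03 on both arrays after 2 h and at 13.02 and 13.16 after 4 h. Only the TFM arrays of 4 h were clearly lower, by about a log2 unit, and they did not overlap the isopropanol arrays. The difference was -1.11 ± 0.067 (SE, adjusted p = 1.44e-06 in limma), a 2.15-fold fall.

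MFA2 stood at 13.69 and 13.57 at time zero, 13.46 and 13.48 after 1 h of isopropanol, 13.51 after 2 h and 13.48 and 13.65 after 4 h. With TFM it stood at 13.44 and 13.53, then 13.45 and 13.24, then 12.40 and 12.54. As for MFA1, the arrays of 1 and 2 h lay near those of isopropanol and both arrays of 4 h lay below all others. The difference at 4 h was -1.09 ± 0.095 (limma, adjusted p = 8.69e-06). Cross-hybridization between the transcripts of the 2 genes was not tested.

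STE6 encodes the ABC transporter that exports a-factor. It stood at 12.62 and 12.51 at time zero, 12.65 and 12.53 after 1 h of isopropanol, 12.32 after 2 h and 12.60 and 12.61 after 4 h. With TFM the values were 12.54 and 12.86 after 1 h, 12.68 and 12.76 after 2 h, and 11.87 and 11.88 after 4 h. The TFM arrays of 2 h lay above the single isopropanol array, which was the lowest of the 5 isopropanol arrays, and those of 4 h lay below every other array. The difference was 0.40 ± 0.12 at 2 h (limma, adjusted p = 0.0587, past the threshold in 4 of 25 other settings) and -0.73 ± 0.10 at 4 h (adjusted p = 0.000152).

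STE2 encodes the receptor for alpha-factor. Its values were 13.10 and 12.96 at time zero, 12.87 and 12.87 after 1 h of isopropanol, 12.85 after 2 h and 13.02 and 13.10 after 4 h. With TFM they were 12.91 and 13.02 after 1 h, 12.89 and 12.67 after 2 h, and 12.23 and 12.27 after 4 h. The TFM arrays of 1 h lay above those of isopropanol, without passing the test (0.090 ± 0.088, limma, adjusted p = 0.624). The groups overlapped at 2 h. At 4 h the TFM arrays lay below, with a difference of -0.81 ± 0.088 (limma, adjusted p = 3.36e-05).

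BAR1 encodes the secreted protease that degrades alpha-factor. It gave 12.27 and 12.18 at time zero, 12.04 and 12.19 after 1 h of isopropanol, 12.06 after 2 h and 12.35 and 12.30 after 4 h. With TFM it gave 12.20 and 12.35 after 1 h, 12.25 and 11.98 after 2 h, and 11.19 and 11.02 after 4 h. The TFM arrays of 1 h lay above those of isopropanol, without passing the test (0.16 ± 0.11, limma, adjusted p = 0.463). The TFM arrays of 4 h lay below the lowest of all others (11.98), with a difference of -1.22 ± 0.11 (limma, adjusted p = 8.48e-06).

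AGA2 encodes the adhesion subunit of a-agglutinin, which is anchored to the cell wall by Aga1. AGA2 stood at 12.82 and 12.72 at time zero, 12.59 and 12.54 after 1 h of isopropanol, 12.67 after 2 h and 12.82 and 12.78 after 4 h. With TFM it stood at 12.55 and 12.68 after 1 h, 12.58 and 12.29 after 2 h, and 11.06 and 11.30 after 4 h. The groups overlapped at 1 h, and the difference at 4 h was -1.62 ± 0.11 (limma, adjusted p = 2.35e-06), a 3.07-fold fall.

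ASG7 encodes a small a-specific protein that dampens pheromone signalling after cells mate. Its values were 9.96 and 10.12 at time zero, 9.76 and 10.05 after 1 h of isopropanol, 9.83 after 2 h and 9.85 and 10.18 after 4 h. With TFM they were 9.85 and 9.66 after 1 h, 9.24 and 8.99 after 2 h, and 8.30 and 8.48 after 4 h. Of the a-specific genes it alone passed the test at 2 h, by -0.72 ± 0.18 (limma, adjusted p = 0.0297), against a single isopropanol array. That call was lost without TFM 2 h replicate 2 (-0.59, adjusted p = 0.11), with the RNA integrity covariate described with the 2 h counts (-0.53, adjusted p = 0.0847) and with only the groups compared (-0.72, adjusted p = 0.171). At 4 h the difference was -1.63 ± 0.15 (limma, adjusted p = 1.02e-05), a 3.09-fold fall. By size, ASG7 ranked 34 and AGA2 38 among the falls of all genes at 4 h.

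**Figure D1:**
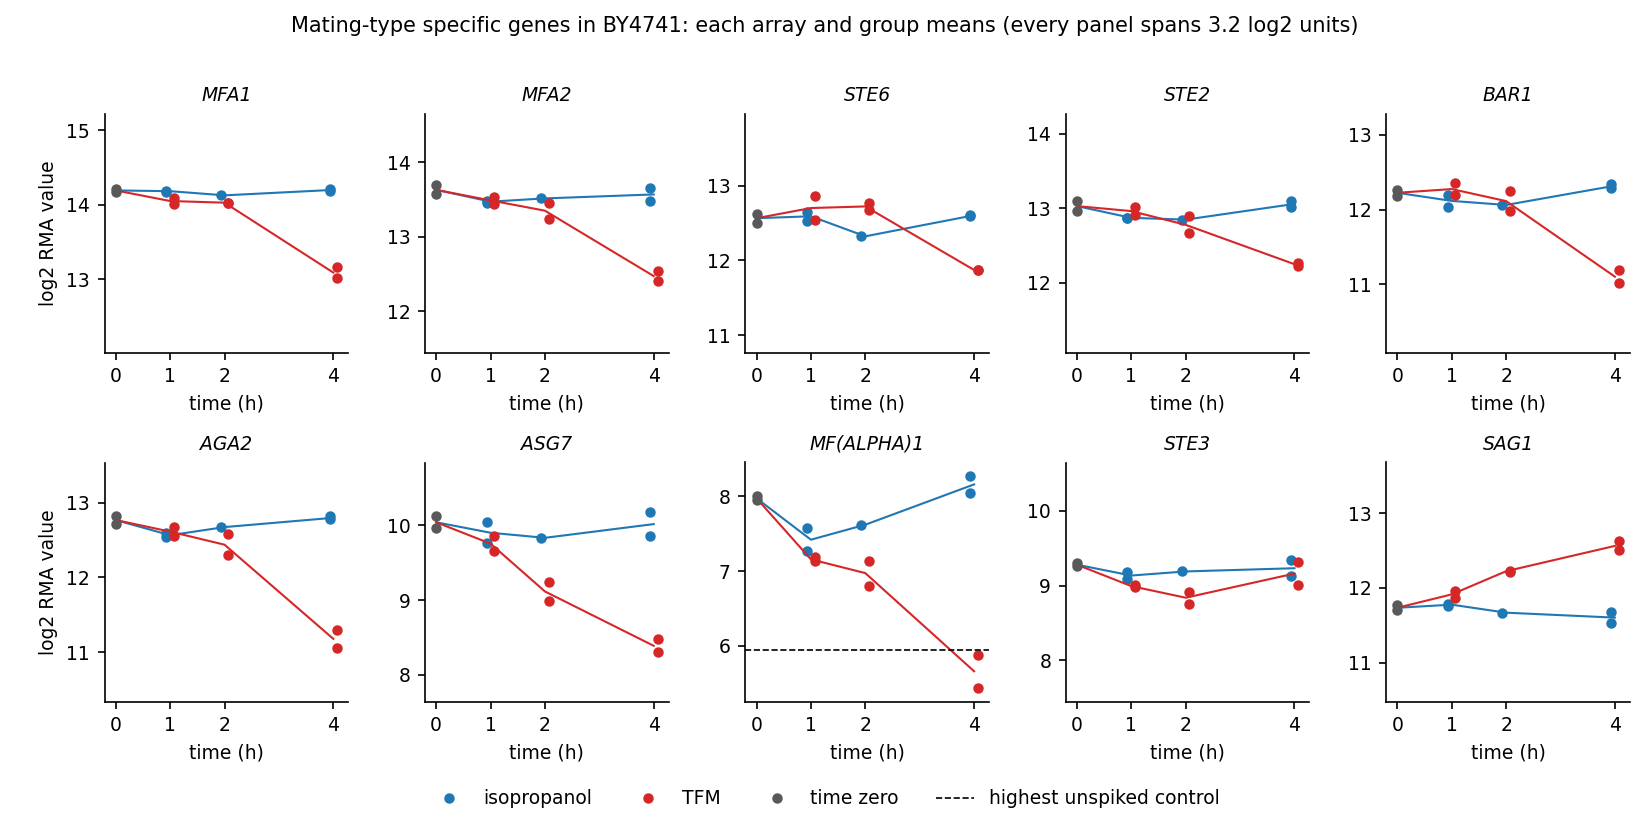
Each panel plots the log2 RMA value of 1 gene against time in hours, with a point for each array, lines through the group means, and panels of equal height. The 7 a-specific genes and MF(ALPHA)1 are lowest on the TFM arrays of 4 h, SAG1 is highest there, and STE3 is not separated; the dashed line at 5.94 is the highest mean of an unspiked control.

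MF(ALPHA)1 encodes the main precursor of alpha-factor and had the largest change of the 10 genes. It stood at 7.95 and 7.998 at time zero, at 7.27 and 7.57 after 1 h of isopropanol, at 7.62 after 2 h and at 8.05 and 8.27 after 4 h. With TFM it stood at 7.13 and 7.18 after 1 h, 7.14 and 6.81 after 2 h, and 5.44 and 5.88 after 4 h. Both TFM arrays lay below the isopropanol arrays at every time, and those of 4 h lay below the background level of 5.94. On the array of 5.88 the highest unspiked control gave 5.71, so by that array's own controls the gene was still above background there, while on the array of 5.44 the highest control gave 5.74.

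The difference in MF(ALPHA)1 was -0.26 ± 0.16 at 1 h (limma, adjusted p = 0.43) and -0.65 ± 0.20 at 2 h (adjusted p = 0.0604), neither passing. At 4 h it was -2.50 ± 0.16 (limma, adjusted p = 2.05e-06), with the TFM mean of 5.66 below the background level. With the TFM arrays raised to the background level, the gene was 4.67-fold lower at 4 h. This value is a lower bound on the fold, and it takes no account of the spread of the arrays. The 95% interval of the limma difference at 4 h ran from -2.87 to -2.13. The calls at the earlier times depended on the setting. Against time zero it passed at 1 h with -0.82 (limma, adjusted p = 0.0468) and at 2 h with -1.002 (adjusted p = 0.00381). At 2 h it also passed with values floored at the background level, at an unchanged difference of -0.65 (limma, adjusted p = 0.0378). The MF(ALPHA)1 difference at 2 h was also -0.65 with TFM 4 h replicate 1 or replicate 2 left out, 1 at a time. Across the groups its mean fell in the order isopropanol 4 h (8.16), time zero (7.97), isopropanol 2 h (7.62), isopropanol 1 h (7.42), TFM 1 h (7.16), TFM 2 h (6.97) and TFM 4 h (5.66). In this order the arrays of TFM 1 h overlapped those of TFM 2 h, and the array of isopropanol 2 h (7.62) lay next to the higher array of isopropanol 1 h (7.57).

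SAG1 encodes alpha-agglutinin, the cell wall adhesin that binds Aga2 on the mating partner. It was the member that rose. It stood at 11.70 and 11.77 at time zero, 11.79 and 11.76 after 1 h of isopropanol, 11.67 after 2 h and 11.53 and 11.67 after 4 h. With TFM it stood at 11.87 and 11.96, then 12.22 and 12.23, then 12.50 and 12.62. The TFM arrays lay above the isopropanol arrays at each time, and the TFM means rose from 1 to 2 to 4 h. The difference was 0.14 ± 0.074 at 1 h (limma, adjusted p = 0.356), 0.55 ± 0.090 at 2 h (adjusted p = 0.0061) and 0.96 ± 0.074 at 4 h (adjusted p = 4.49e-06), a 1.95-fold rise at 4 h. The call at 2 h was lost with only the 3 arrays of that time in the fit (adjusted p = 0.175).

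STE3 encodes the receptor for a-factor. Its values were 9.26 and 9.30 at time zero, 9.09 and 9.18 after 1 h of isopropanol, 9.19 after 2 h and 9.13 and 9.34 after 4 h. With TFM they were 9.01 and 8.98 after 1 h, 8.92 and 8.76 after 2 h, and 9.32 and 9.01 after 4 h. The TFM arrays lay below those of isopropanol at 1 and 2 h and overlapped them at 4 h. STE3 passed the test at none of these times, with -0.14 ± 0.11 at 1 h, -0.35 ± 0.14 at 2 h (limma, adjusted p = 0.116) and -0.071 ± 0.11 at 4 h (adjusted p = 0.594). The 95% interval of the 4 h difference ran from -0.32 to 0.18. At 2 h it did pass against time zero (-0.44, adjusted p = 0.0208), against all 5 isopropanol arrays (-0.35, adjusted p = 0.021) and after cyclic loess (-0.41, adjusted p = 0.0385).

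The effect of TFM at 4 h differed from that at 1 h, by a test of the difference in limma, for the 9 members that passed at 4 h: it was lower for 8 and higher for 1, SAG1. Of all genes this contrast called 49.3%, 26.4% lower and 22.9% higher. The a-specific median of this difference between effects was -1.11, beside -0.018 over all genes.

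**Figure D2:**
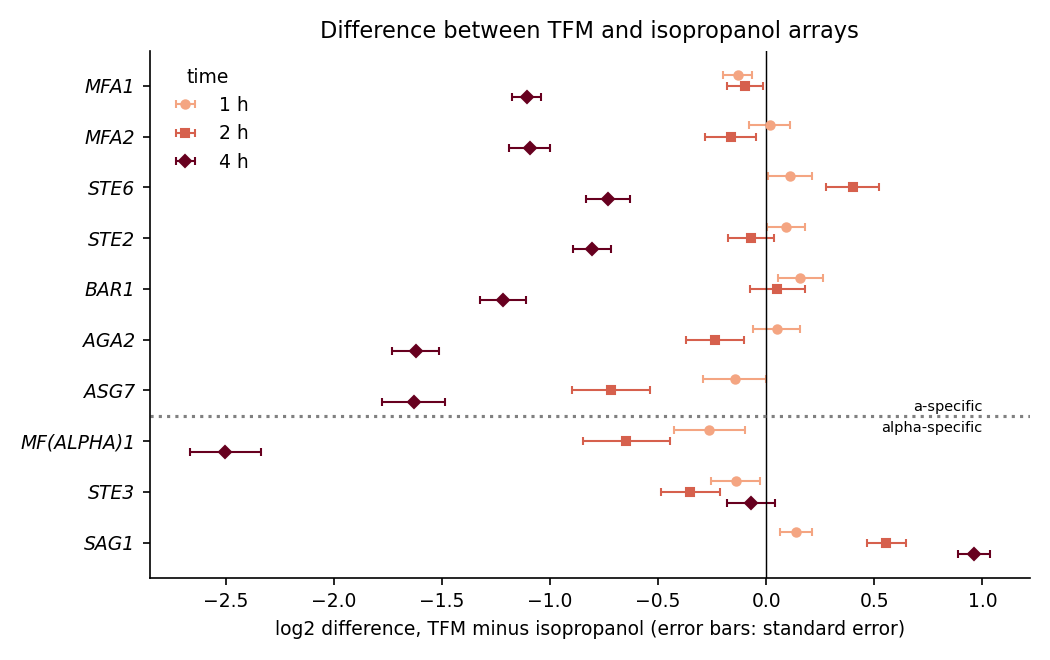
The log2 difference between TFM and isopropanol arrays is plotted for each gene at 1, 2 and 4 h, with standard errors from limma as error bars. All a-specific genes lie between -0.73 and -1.63 at 4 h, while at 1 h no gene lies farther from 0 than -0.26.

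At 1 h of TFM none of the 10 members passed the test (limma; 0 had an unadjusted p under 0.05), where 1.23% of all genes were called, 0.422% lower and 0.807% higher. At 2 h ASG7 was lower and SAG1 higher, where 14.1% of all genes were called, 5.84% lower and 8.30% higher. An unadjusted p under 0.05 in limma was found for 5 of the 10 members at 2 h, beside 1668 of 5449 genes. For the 0 members at 1 h the matching number was 963 of 5449 genes. The a-specific median was 0.048 at 1 h and -0.098 at 2 h, beside 0.0060 and 0.011 over all genes. The count at 2 h varied with the setting, as did the count over all genes, though not always together. It was 0 with only the groups compared (3 genes in all) and 4 against time zero (1313 genes in all). After a further quantile normalization it stayed at 2 (846 genes in all, beside 770). On TFM 2 h replicate 2, 6 of the 7 a-specific genes were lower than, or level with, replicate 1, and STE6 was higher. RNA integrity was read from 7 control transcripts as the mean of the 3 prime minus the 5 prime probe sets. It was 1.49 on replicate 2, 1.18 on replicate 1 and 1.14 on the array with isopropanol. With this measure as a covariate at 2 h, 1 member and 513 genes in all passed, ASG7 lost its call and SAG1 kept it.

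That same measure of RNA integrity moved with treatment at 4 h, where it was 1.63 and 1.40 on the TFM arrays and 1.15 and 1.13 on the isopropanol arrays. On the isopropanol arrays of 1 h it was 1.42 and 1.34. When it entered the model as a covariate, which was decided after the data were seen, 9 members again passed at 4 h. Over all genes 2448 passed, beside 3539 without the covariate. The a-specific differences then lay between -0.63 for STE2 and -1.31 for AGA2, MF(ALPHA)1 was at -1.96 and SAG1 at 1.00.

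In isopropanol without TFM no member passed the test against time zero. Averaged over 1, 2 and 4 h, the differences from time zero ran from -0.24 for MF(ALPHA)1 to -0.023 for MFA1, and 0 of 10 passed (limma; 0 had an unadjusted p under 0.05). Over all genes 0.00% were called, and 52 of 5449 had an unadjusted p under 0.05. For STE2 the difference was -0.10 with a 95% interval from -0.27 to 0.064, and for MF(ALPHA)1 the interval ran from -0.55 to 0.072. That average of MF(ALPHA)1 holds group means of 7.42 at 1 h, 7.62 at 2 h and 8.16 at 4 h, beside 7.97 at time zero.

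The a-specific genes moved closely together over the 13 arrays, but much of this came from the TFM arrays of 4 h. Pearson r between pairs of them ran from 0.646 for STE6 with ASG7 to 0.992 for MFA2 with AGA2. Without those arrays, over 11 arrays, it ran from -0.52 for STE6 with ASG7 to 0.911 for STE2 with AGA2, and STE6 correlated below 0 with 4 of the other a-specific genes. MF(ALPHA)1 followed ASG7 at 0.944 over all arrays and 0.806 over the 11, and SAG1 ran opposite to ASG7 at -0.943 and -0.857. For STE3 the values were 0.338 and 0.932 with ASG7, and -0.333 and -0.566 with STE6. These values describe arrays that share treatment groups, so they are not independent points.

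Among all genes, those whose pattern over the 13 arrays was most like that of AGA2 were RPS15, RPL8A and RPS16B, which encode ribosomal proteins, at Pearson r from 0.9953 to 0.9961. MFA1 was most like VAS1, the valyl-tRNA synthetase gene, RPL24B and RPL33B, at 0.9948 to 0.9953, and MFA2 most like LMO1, RPS13 and RPS15, at 0.992 to 0.9923. STE2 was most like the replication gene MCM3 (0.9801), FAR1 (0.9799) and RPS7B (0.9783). STE6 followed UTP21, NUP133 and ERB1 at 0.9753 to 0.9855, BAR1 followed ALG2, NCL1 and CIR2 at 0.9788 to 0.9835, and ASG7 followed PRR1, AIM4 and COG2 at 0.9868 to 0.9908. MF(ALPHA)1 was most like PRS1, RPL21B and ERG13, an enzyme gene of ergosterol synthesis, at 0.9864 to 0.9882. SAG1 was most like YNL234W, FOX2, a gene of peroxisomal beta-oxidation, and STD1, at 0.9828 to 0.9837. Without the TFM arrays of 4 h the 3 genes named for AGA2 kept r of 0.9488 to 0.9621 with it, while those named for BAR1 had 0.7254 to 0.7534. How many other genes came near the values of the named genes was not counted.

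The 2 further alpha-specific genes on the arrays differed. AFB1, which encodes a blocker of a-factor in alpha cells, fell by 0.68 at 2 h (limma, adjusted p = 0.0104) and by 1.20 ± 0.11 at 4 h (adjusted p = 9.2e-06). Its values at 4 h were 10.74 and 10.92 with isopropanol and 9.66 and 9.60 with TFM. MF(ALPHA)2, the minor alpha-factor gene, had a difference of -0.0033 ± 0.14 at 4 h (limma, adjusted p = 0.985) and stood at 6.61 to 7.09 on all arrays, little above background. On the 2 arrays of TFM 4 h, where MF(ALPHA)1 gave 5.44 and 5.88, MF(ALPHA)2 gave 6.99 and 6.61.

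**Figure D3:**
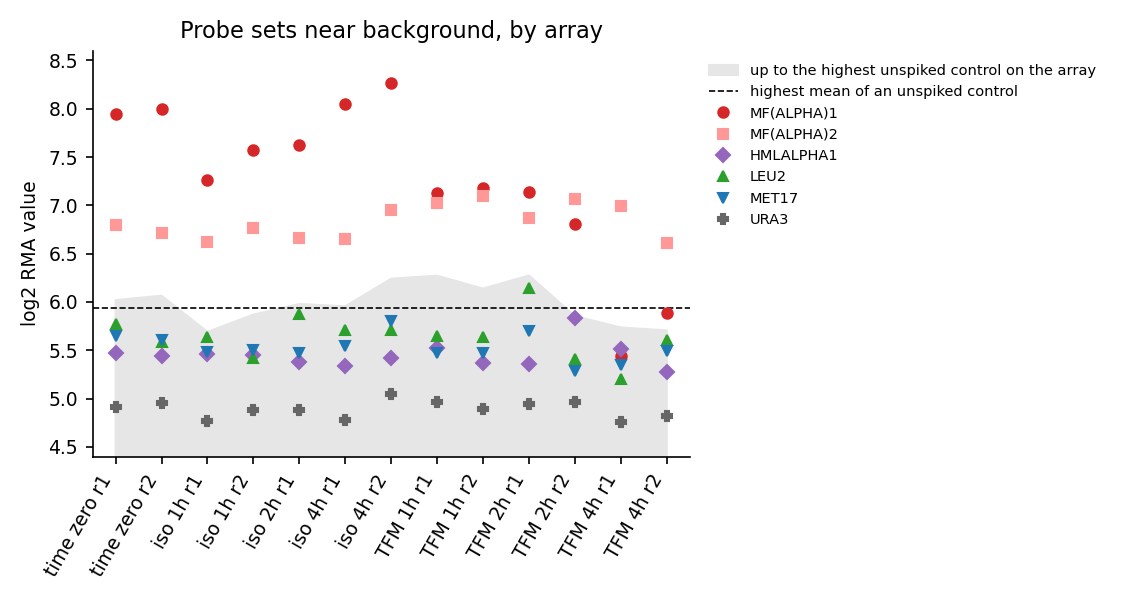
Log2 RMA values of 6 probe sets are plotted for each array (r1 and r2, replicates; iso, isopropanol), with the range below that array's highest unspiked control shaded. MF(ALPHA)1 lies above the shaded range on all arrays but TFM 4 h replicate 1, where it stood at 5.44, and HMLALPHA1, MET17, URA3 and LEU2 stay within it.

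Genes that control mating type moved in both directions at 4 h. Of the 11 measured genes of the mating-type loci, their regulators and silencing, 4 rose and 3 fell, with a median difference of 0.015, beside 30.9% and 34.0% of all genes. HMRA1 rose by 0.54 ± 0.18 (limma, adjusted p = 0.0248), from 11.87 and 11.32 with isopropanol to 12.10 and 12.16 with TFM. The probe set named HMRA2 rose by 0.48 ± 0.15 (limma, adjusted p = 0.0197). From which locus the HMRA1 and HMRA2 signals came was not tested. The silencing genes SIR4 and SIR1 rose by 0.51 ± 0.090 (limma, adjusted p = 0.000724) and 0.47 ± 0.15 (adjusted p = 0.0197), whereas SIR3 fell by 0.88 ± 0.089 (adjusted p = 2.11e-05). The co-repressor genes CYC8 and TUP1 fell by 0.63 ± 0.074 (limma, adjusted p = 5.68e-05) and 0.41 ± 0.094 (adjusted p = 0.00337). MCM1 did not pass, at -0.082 ± 0.10 (limma, adjusted p = 0.493), nor did HMLALPHA1, at 0.015 ± 0.14 (adjusted p = 0.933). Of the haploid-specific genes, NEJ1, a factor of DNA end joining, rose by 0.66 and RME1, a repressor of meiotic entry, fell by 0.35 (limma, adjusted p = 4.62e-05 and 0.00985).

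In the signalling pathway that both mating types share, 9 of 19 genes rose and 8 fell at 4 h, with a median of 0.20, beside 30.9% and 34.0% of all genes. The MAP kinase kinase gene STE7 rose by 1.20 ± 0.069 (limma, adjusted p = 1.17e-06), the scaffold gene BEM1 by 0.73 and the kinase gene STE11 by 0.59. FAR1, which arrests the cell cycle in response to pheromone, fell by 1.28 ± 0.12 (limma, adjusted p = 1.28e-05), the G protein beta subunit gene STE4 by 0.50 and DIG2, an inhibitor of Ste12, by 0.40. STE12, the transcription factor of the pathway, did not pass, at -0.15 ± 0.092 (limma, adjusted p = 0.175).

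Of 17 genes known to be induced by pheromone, 5 rose and 4 fell at 4 h, with a median of -0.069, shares no higher than the 30.9% and 34.0% of all genes. KAR4, a regulator of nuclear fusion genes, fell by 1.32 ± 0.082 (limma, adjusted p = 1.7e-06). PRM5 fell by 0.83 and AGA1, which encodes the anchor of Aga2, fell by 1.10 ± 0.15 (limma, adjusted p = 0.000145). FIG2, PRM2 and PRM10 rose by 0.65, 0.50 and 0.56. FUS1, a gene of cell fusion, did not pass, at -0.069 ± 0.13 (limma, adjusted p = 0.669).

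Of the 10 genes that process the pheromone precursors, 4 rose and 5 fell at 4 h, with a median of -0.17, beside 30.9% and 34.0% of all genes. The a-factor protease genes RCE1, STE24 and STE23 fell by 1.16 ± 0.099, 0.52 ± 0.075 and 0.64 ± 0.092 (limma, adjusted p = 8.15e-06, 0.000198 and 0.000204). The farnesyltransferase gene RAM1 and the methyltransferase gene STE14 fell by 0.35 and 0.40. AXL1, another protease that matures a-factor, rose by 0.59 ± 0.073 (limma, adjusted p = 8e-05), and RAM2 did not pass at 0.0094. The proteases that mature alpha-factor all rose: KEX1 by 0.57, STE13 by 0.28 and KEX2 by 0.31 (limma, adjusted p = 0.000253, 0.00503 and 0.0346). This division by pheromone, and the naming of HMRA1, RAM1, RAM2, STE14, KEX2 and the genes that did not pass, were chosen after the values were seen.

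**Figure D4:**
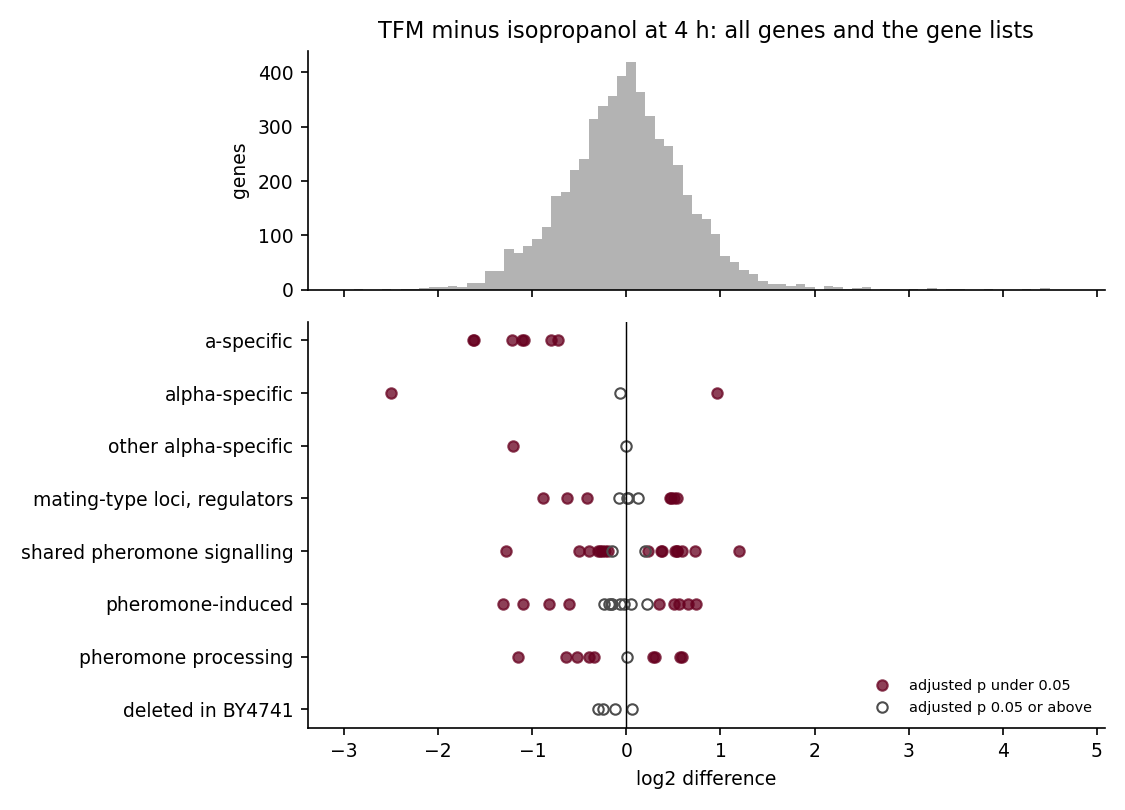
The upper panel shows the number of genes by their log2 difference between TFM and isopropanol at 4 h, and the lower panel the same difference for the genes of each list, filled where the adjusted p is under 0.05. All 7 a-specific genes lie on the left, with a median of -1.11, while the signalling, induced and processing lists lie on both sides of 0.

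The genes next to the members on the chromosomes were also read at 4 h, by their order in the RefSeq gene table. Of the 17 measured neighbours 3 rose, 6 fell and 8 did not pass, with a median of -0.045, beside 30.9% of all genes that rose and 34.0% that fell. RPL24A, a ribosomal protein gene beside AGA2, fell by 1.43 ± 0.13 (limma, adjusted p = 1.04e-05), and SNL1, beside BAR1, fell by 0.96. APL1, beside SAG1, rose by 0.56, and its other neighbour MRX12 did not pass at 0.14. UIP4, beside MF(ALPHA)1, fell by 0.40 and POS5, on the other side, did not pass at 0.094. The neighbours named here were chosen after their values were seen.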

How the data were processed

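The deposited table holds log2 values made with RMA (background correction, quantile normalization and summary per probe set), per the submitters' processing notes, with no RMA version given. Of 5900 probe sets, 5498 carried 1 gene in the array annotation, 184 were controls and 218 carried no gene. Symbols were updated by gene ID from the RefSeq table of assembly R64, which matched all 5449 genes. For 47 genes with more than 1 probe set, that of the highest mean was kept. A mean for each of 7 groups was fitted to all 13 arrays with limma 3.58.1 in R 4.3.3 (default eBayes, 6 residual and 3.52 prior degrees of freedom). The lone isopropanol array of 2 h took its spread from the other groups. P-values are two-sided and Benjamini-Hochberg adjusted over all 5449 genes, with a threshold of 0.05. The code was tested on simulated data. All 10 members are named, and from each further list up to 3 genes each way with the smallest adjusted p at 4 h. Likeness names 3 genes per member that passed at 4 h. Members and lists were chosen with earlier results of these data known. Figures used matplotlib 3.10.9 in Python 3.11.15.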

Additional observations from a re-analysis of the deposited data

Results flagged for a closer look

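The TFM effect at 4 h differed from that at 1 h, by the test of that difference in limma, for 9 of the 10 members, beside 49.3% of all genes, 26.4% lower and 22.9% higher. Among the a-specific genes the difference between the effects was -1.67 for AGA2, -1.48 for ASG7, -1.38 for BAR1 and -1.11 for MFA2. It was -0.98 for MFA1, -0.90 for STE2 and -0.84 for STE6, with adjusted p in limma from 6.25e-05 for AGA2 to 0.00115 for STE6. MF(ALPHA)1 had -2.24 (limma, adjusted p = 9.98e-05), with its TFM arrays of 4 h below the background level, and SAG1 had 0.82 (adjusted p = 0.00025). STE3 did not pass, at 0.070 ± 0.16 (limma, adjusted p = 0.737). These differences share their 4 h arrays with the 4 h comparison.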

How the results depend on the processing

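At 4 h the 9 calls kept their direction and passed in every setting that tested them, and the count was 9 in each but one: without the dimmest 25% of genes, where ASG7, STE3 and MF(ALPHA)1 were not tested, it was 7. The same held for the difference between 4 h and 1 h. For isopropanol against time zero the count was 0 in all 23 settings. At 1 h the count was 1, MF(ALPHA)1, when TFM was set against time zero (117 genes in all) or against the 5 isopropanol arrays together (299 in all). At 2 h it was 4 against time zero, against all 5 isopropanol arrays and after cyclic loess (1313, 1666 and 872 genes in all, beside 770), 0 with only the groups compared (3 in all), 1 with the 3 prime minus 5 prime covariate (513 in all), and 1 to 3 with single arrays left out. MF(ALPHA)1 passed at 2 h in 8 of 24 settings. Some differences that had not passed changed sign. At 1 h, against time zero, these were STE2 (-0.067), MFA2 (-0.14) and AGA2 (-0.15). Against all 5 isopropanol arrays MFA2 (-0.031) and AGA2 (-0.067) did so, and with the hybridization control covariate MFA2 (-0.060) and AGA2 (-0.055). With single arrays left out the ranges at 1 h were -0.047 to 0.27 for STE6, -0.032 to 0.064 for MFA2 and -0.017 to 0.11 for AGA2. At 2 h STE2 had 0.024 with the 3 prime minus 5 prime covariate and -0.18 to 0.043 with single arrays left out. BAR1 had -0.11 against time zero, -0.073 against all 5 isopropanol arrays and -0.081 to 0.18 with single arrays left out. STE3 ranged from -0.23 to 0.085 at 4 h and from -0.087 to 0.23 for 4 h minus 1 h with single arrays left out, and the latter was -0.090 with the hybridization control covariate. The cause of these changes was not tested. Both covariates were chosen after seeing the data. At 4 h the mean of the hybridization controls was 12.23 and 11.45 on TFM replicates 1 and 2. It was 11.58 and 11.36 on the isopropanol replicates of that time.

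Same-numbered arrays of TFM and isopropanol deviated at r = -0.226 at 1 h and -0.0928 at 4 h, and those of time zero and isopropanol at 0.426 and 0.599. No label ties equal numbers to a culture or a day, so the numbers were not used as pairs. With a replicate block 0, 2 and 9 members passed at 1, 2 and 4 h, as without it, while 7, 487 and 3465 genes passed in all, beside 67, 770 and 3539.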
